A study of Mus musculus with 6 samples.

Results

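Ddit4 and a small group of genes of the phosphoinositide 3-kinase (PI3K) and mTOR pathway were examined in fetal livers of Rb null and wild type mouse embryos. The group held 9 genes: Ddit4, Pik3r1, Pik3r2, Pik3ca, Akt1, Tsc2, Mtor, Eif4ebp1 and Eif4ebp2. All probe sets that the platform annotation gives to a single one of these symbols were taken, which made 15 of the 12488 probe sets in the table, for 9 of the 8251 genes with such a probe set. The genes were chosen by their signals in these Rb null and wild type livers, with the differences already known. Those differences are therefore given as a description, without p values.

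The samples were 3 Rb null and 3 wild type livers, all from untreated embryos at embryonic day 12.5 that came from matings of 129sv mice heterozygous for Rb. Each liver was read on an Affymetrix array of its own, so n = 3 embryos per genotype throughout. The sources used here do not give the mutant allele, the sex of the embryos or the litters. Levels are MAS5 signals on a linear scale, given per embryo or as mean ± SD. Differences are the Rb null mean minus the wild type mean of log2(signal + 50.02), given ± SE, and this offset makes the changes of dim probe sets look smaller. A probe set was tested if its signal averaged more than 150.1 across the 6 arrays, and a gene was called higher or lower at a limma adjusted p below 0.05. The number of arrays limits the precision.

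PI3K makes a membrane lipid that recruits and activates the kinase AKT when growth factors or cytokines bind their receptors. AKT inhibits the TSC complex, which otherwise holds back mTOR complex 1, and active mTOR releases translation from the repressors encoded by the Eif4ebp genes. Ddit4, also known as REDD1, is induced by low oxygen, glucocorticoids and DNA damage, and its protein restrains mTOR complex 1 through TSC. Erythroblasts, the main cells of the liver at this age, depend on PI3K signalling from the receptors for erythropoietin and stem cell factor.

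The labelled genotype was checked first. The brighter Rb1 probe set read 138.8, 141.6 and 127.4 in the 3 Rb null livers, against 790.6, 753.6 and 706.2 in the wild type livers, but no source used here places its probes relative to the deletion. The defining markers of red cell precursors (Klf1, Gata1, Alas2) and of hepatoblasts (Alb, Afp) were all above the signal filter. Some markers of each cell type of the liver differed between genotypes. Over all 5273 tested genes 13.1% were called higher and 9.5% lower in Rb null livers, as a measure for the counts that follow. Each sum gives most weight to its brightest markers. The summed signal of the 10 erythroid markers on the array was 54661 to 60617 in Rb null livers and 69667 to 75554 in wild type livers, and 8 of the 10 fell. The sum for the 9 hepatoblast markers was 38359 to 40897 in Rb null livers and 40807 to 44257 in wild type livers, with 1 higher and 2 lower. For minor cell types the sums, over all markers on the array, were higher in every Rb null liver than in every wild type liver. They were 12141 to 13756 in Rb null against 9699 to 10123 in wild type livers for mesenchyme (4 of 7 tested higher) and 8618 to 8950 in Rb null against 6365 to 6546 in wild type livers for granulocytes (4 of 6 higher). Of the tested granulocyte markers, Elane and Prtn3 were not past the threshold. The sums were 5657 to 6169 in Rb null against 5008 to 5276 in wild type livers for macrophages (3 of 9 higher), 4660 to 5141 in Rb null against 3917 to 4152 in wild type livers for endothelium (2 of 7 higher), and 1692 to 2028 in Rb null against 1065 to 1166 in wild type livers for megakaryocytes (2 of 3 higher). No marker was at 0, but Pecam1, Des, Pdgfrb, Pf4, Ctsg and Adgre1 lay below the signal filter. In whole livers, fewer cells of a type and less RNA per cell cannot be told apart, and the part of cell makeup in the values below was not tested.

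Ddit4 was the gene of the 9 with the greatest difference. Its probe set read 1055.2, 1047.8 and 903.8 in the Rb null livers, against 166.4, 147 and 137.7 in the wild type livers. The groups were far apart and each was tight, with a coefficient of variation of 8.52% in Rb null livers and 9.74% in wild type livers. The mean signals were 1002 ± 85.4 in Rb null livers and 150.4 ± 14.6 in wild type livers, a ratio of 6.67. On the offset scale the difference was 2.39 ± 0.10, or 5.25-fold. The wild type signal sat at the signal filter, with 2 of the 3 embryos below it, and was not shown to be above background, so neither the ratio nor the fold is an exact size. The difference also depended on the offset, with 1.94 at a higher offset of 150.1 and 2.66 at a lower one. Leaving out any single embryo moved it only between 2.35 and 2.46.

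The promoter of Ddit4 is shown because low oxygen is a known inducer of the gene. It was chosen after known hypoxia targets were seen to be higher in the same livers (below). Some genes of the integrated stress response, glucocorticoid and handling lists were higher too. The part of any promoter motif in the Ddit4 values was not tested. RefSeq promoters, 250 bases before and 50 after the transcript start, were found for 8 of the 9 genes on build GRCm38.p6. Eif4ebp1 was the gene without such a promoter, so the motif searches do not cover it. That of Ddit4 lies at chr10:59951721-59952020 on the minus strand. The capitals mark ACGTG, a form of the core of the element bound by hypoxia-inducible factors, 187 bases before the start. Only this form was searched. Other forms, such as the GCGTG in the same promoter, are neither marked nor counted here.
Ddit4: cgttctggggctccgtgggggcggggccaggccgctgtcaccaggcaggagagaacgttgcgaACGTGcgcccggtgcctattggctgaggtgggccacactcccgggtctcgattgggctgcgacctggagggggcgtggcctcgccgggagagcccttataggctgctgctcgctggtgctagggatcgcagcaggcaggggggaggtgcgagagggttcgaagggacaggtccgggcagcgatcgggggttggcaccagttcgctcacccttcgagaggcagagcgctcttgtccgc
ACGTG was also found, read on the other strand as CACGT, in the promoters of Pik3ca (chr3:32396853-32396893, plus strand) and Eif4ebp2 (chr10:61452829-61452869, minus strand). The 41 bases that hold each match are given for comparison.
Pik3ca: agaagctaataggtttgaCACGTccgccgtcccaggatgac
Eif4ebp2: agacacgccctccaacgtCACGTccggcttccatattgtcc
ACGTG was present, on either strand, in 19.6% of all 32851 RefSeq promoters, so that its presence in a promoter is common. Of the other motifs searched on both strands, TGACGT, the core of the cAMP element, was in the promoter of Eif4ebp2 (7.51% of all promoters), where it overlaps the ACGTG match. GTAAACA, the FoxO motif, was in an Akt1 promoter (3.65% of all). TTGCATC of the amino acid response element (2.53% of all) and the E2F motifs TTCGCGC (1.59%) and TTGGCGC (2.45%) were in none of the 10 promoters of these genes.

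**Figure D1:**
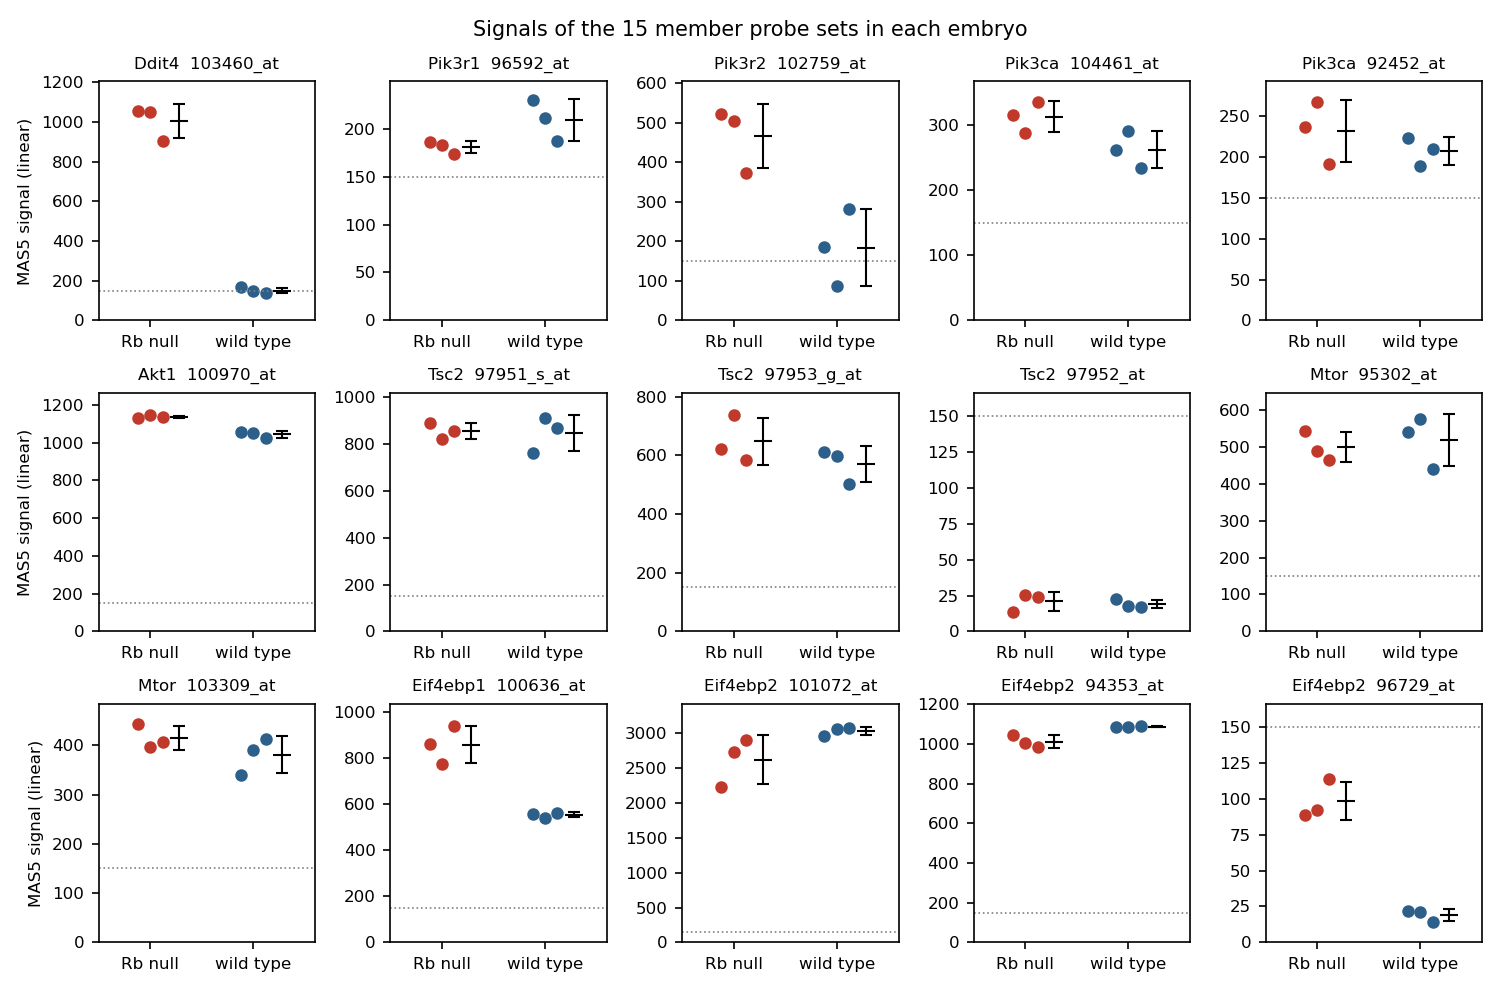
MAS5 signals (linear axis from 0) of the 15 probe sets of the 9 genes, with 1 point per embryo, Rb null left and wild type right, and the mean ± SD (n = 3) beside the points. The dotted line is the signal filter of 150.1. Ddit4, Pik3r2 and Eif4ebp1 had all Rb null embryos above all wild type embryos, Pik3r2 with widely scattered wild type values, while the Tsc2 and Mtor groups overlapped.

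Of the PI3K subunits, Pik3r2 was past the threshold and Pik3r1 and Pik3ca were not. Pik3r2, the beta isoform of the regulatory subunit, read 522, 504.5 and 374.5 in Rb null livers, against 185.6, 85.9 and 282.3 in wild type livers. The groups did not overlap, but the wild type embryos were widely scattered, and wild type embryo 2 lay below the signal filter. The difference was 1.22 ± 0.29, and the spread within genotypes was greater than that of 99.1% of the tested probe sets. It was past the threshold with all 6 embryos, but not without Rb null embryo 1 (1.14) or Rb null embryo 2 (1.16), nor when the signal filter was dropped, and it ranged from 0.87 without wild type embryo 2 to 1.52 without wild type embryo 3.

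Pik3r1, the alpha isoform of the regulatory subunit and its more widely used form, had a difference of opposite sign. It read 186.6, 182.8 and 173.7 in Rb null livers, against 230.2, 211.1 and 186.8 in wild type livers. The lowest wild type embryo was almost at the highest Rb null embryo, and the difference of -0.16 ± 0.11 was not past the threshold. Other scalings of the arrays gave between -0.28 and -0.27, also not past it. Pik3ca, the alpha catalytic subunit, had a pair of probe sets whose groups overlapped, with differences of 0.22 ± 0.11 on the brighter and 0.12 ± 0.13 on the dimmer. The brighter read 315, 287.7 and 335.7 in Rb null livers, against 261.9, 290.6 and 233.6 in wild type livers.

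Downstream of PI3K, no probe set of Akt1, Tsc2 or Mtor was past the threshold. Akt1, the kinase activated by the PI3K lipid, read 1131.1, 1145 and 1135.4 in Rb null livers, against 1057, 1054 and 1024 in wild type livers. The groups did not overlap. The spread within genotypes was smaller than that of all but 0.339% of the tested probe sets, and the difference was only 0.12 ± 0.05 and was not past the threshold. It was -0.01 after the arrays were scaled to equal medians, so its direction depended on the scaling.

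Tsc2, the subunit of the TSC complex that switches off the mTOR activator Rheb, had overlapping groups on each of its 3 probe sets. The brightest averaged 855 ± 33.5 in Rb null livers and 847 ± 76.7 in wild type livers (0.02 ± 0.08). The next averaged 649 in Rb null livers and 571 in wild type livers (0.17 ± 0.11), and the dimmest, at 20.9 ± 6.70 in Rb null livers and 19.2 ± 2.89 in wild type livers, lay below the filter and was not tested. Mtor, the kinase itself, also had overlapping groups. Its brighter probe set read 543.7, 488.8 and 464.6 in Rb null livers, against 538.9, 576.2 and 440.7 in wild type livers (-0.05 ± 0.11). The other averaged 415 ± 24.6 in Rb null livers and 381 ± 38.4 in wild type livers (0.11 ± 0.09). These values concern transcripts and say nothing of kinase activity.

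Of the translation repressors at the end of the pathway, Eif4ebp1 was past the threshold and Eif4ebp2 was not. Eif4ebp1 read 861.7, 776.5 and 938.2 in Rb null livers, against 556.3, 542.4 and 564 in wild type livers. Every Rb null embryo was well above every wild type embryo, with a difference of 0.59 ± 0.08. It was past the threshold in all 17 alternatives in which it could be computed, with values from 0.46 after median scaling to 0.65 without Rb null embryo 2.

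Eif4ebp2 had 3 probe sets that differed in direction. The brightest read 2230.1, 2734.5 and 2894.8 in Rb null livers, against 2961.9, 3051.8 and 3065.8 in wild type livers (-0.21 ± 0.09). The next read 1048.3, 1003.2 and 986.8 in Rb null livers, against 1085.8, 1084.6 and 1089.5 in wild type livers (-0.10 ± 0.06). On both, all Rb null embryos were lower by a small margin that was not past the threshold, except after median scaling (-0.35 and -0.23). The third went the opposite way, at 88.9, 92.3 and 113.7 in Rb null livers, against 21.8, 21.4 and 14 in wild type livers, but it lay below the signal filter in every embryo and was not tested. No source used here places these 3 probe sets on the transcript.

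Of the 15 probe sets, 13 passed the signal filter, and they covered all 9 genes. With all embryos, 3 were past the threshold, all of them higher in Rb null livers (Ddit4, Pik3r2 and Eif4ebp1), none was lower and 10 were not past it. Among all 6793 tested probe sets 21.8% were past it, 12.8% higher and 9.08% lower. The groups did not overlap on 7 of the 13 (4 higher, 3 lower), against 40% of all tested probe sets (22.9% higher, 17.2% lower). Since the genes were chosen with this comparison in view, nothing is read from these counts. The median difference of the 13 was 0.12, against 0.02 for all tested probe sets, and 8 of the 13 differed by less than 0.2 in either direction. Over all tested probe sets the median size of the difference, regardless of direction, was 0.16, so most of them also differed by less than 0.2.

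**Figure D2:**
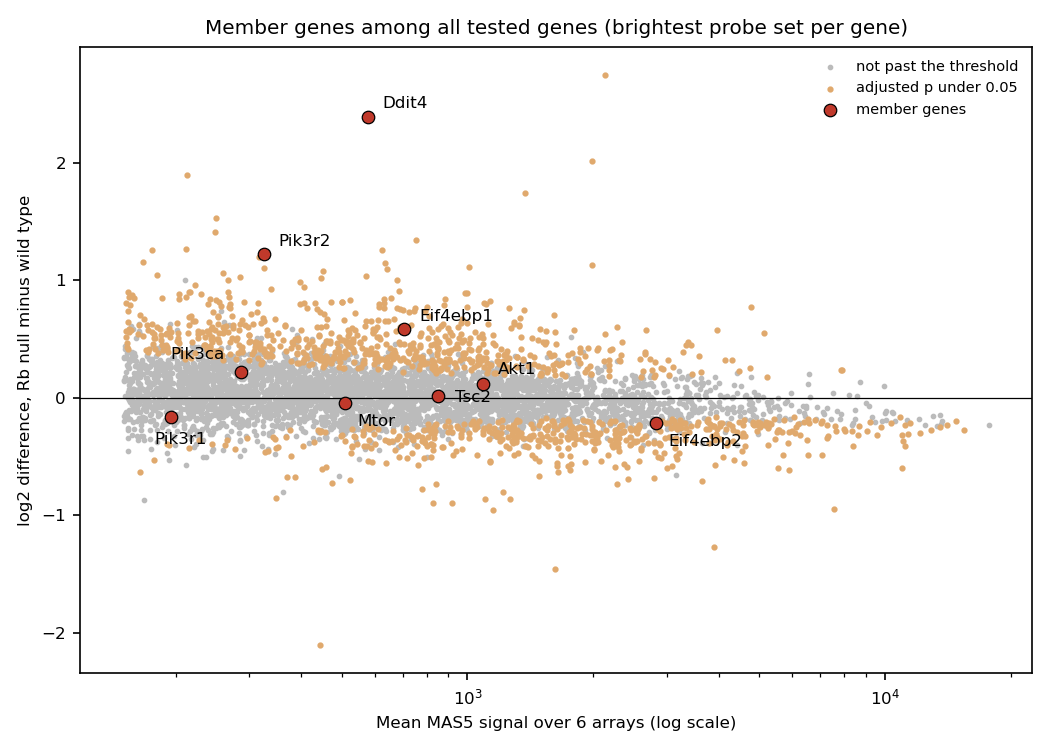
log2 difference (Rb null minus wild type) against the mean MAS5 signal (log axis) for the 5273 tested genes, each by its brightest probe set, with the 9 genes in red. Ddit4 (2.39) and Pik3r2 (1.22) lie at the upper edge, Eif4ebp1 (0.59) above most genes, and the other 6 within the dense band around 0.

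**Figure D3:**
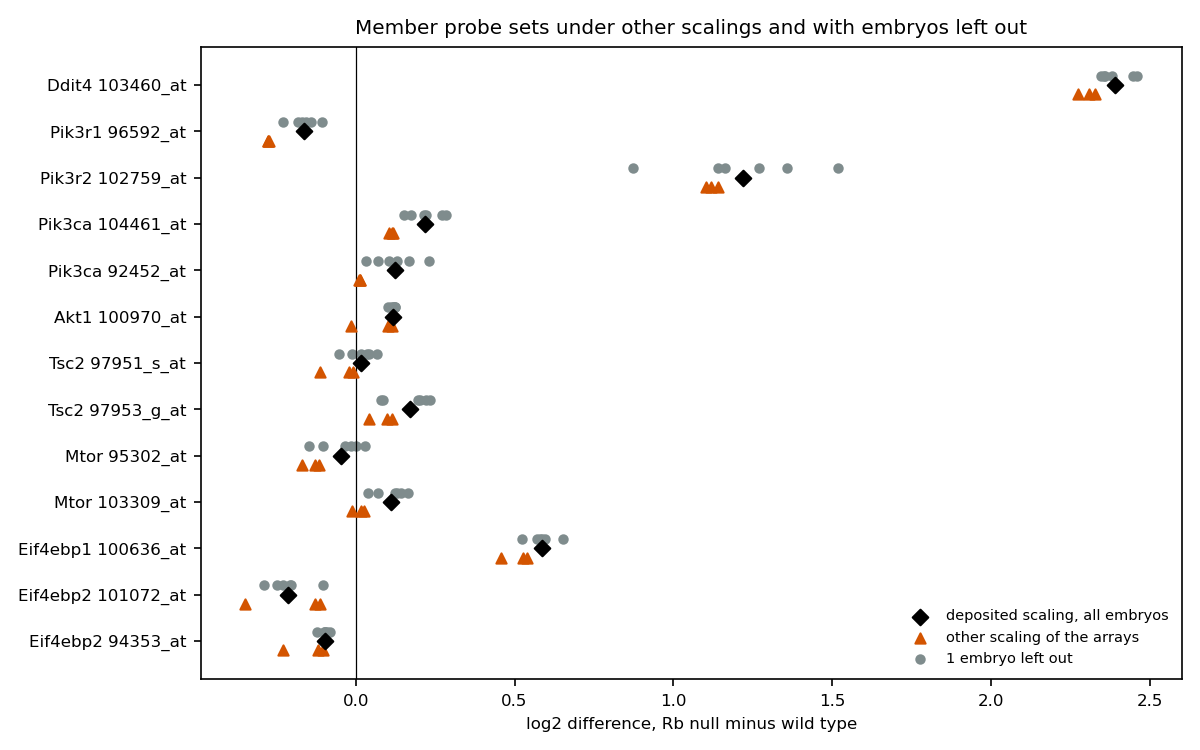
log2 difference (Rb null minus wild type) of the 13 tested probe sets with the deposited scaling and all embryos (diamonds), under quantile, median and cyclic loess scaling (triangles) and with 1 embryo left out (circles). Ddit4 and Eif4ebp1 stayed clearly above 0, Pik3r2 spread from 0.87 to 1.52, and Akt1, a Tsc2 and both Mtor probe sets crossed 0 under some of these settings.

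Genes of the pathway other than these 9 were followed on 6 lists written from textbook knowledge. Of 137 listed genes 83 had a probe set with a single symbol and 70 were tested. In limma's fit over all probe sets 8 rose and 5 fell, together 18.6%, against 22.6% of all 5273 tested genes (13.1% higher, 9.5% lower). The groups did not overlap for 27 of the 70, against 41.2% of all tested genes (23.5% higher, 17.6% lower). The median difference was 0.06 over the lists and 0.02 over all tested genes. After the arrays were scaled to equal medians, which moved the median of all tested probe sets by -0.12, the counts were 4 and 10, and over all genes 25.1% of the calls were then upward, against 57.9% with the deposited scaling. Fewer rose without Rb null embryo 2 (4) or without wild type embryo 1, 2 or 3 (5 each), and 3 fell without Rb null embryo 1 or 2 or without wild type embryo 1, 2 or 3. Rheb, Rptor and Rictor were not analysed here.

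Among receptors and adaptors, 4 of 11 tested genes rose and none fell (median 0.24). Grb10, an imprinted adaptor that dampens insulin receptor signalling and is a substrate of mTOR, read 915.2, 922.8 and 870.4 in Rb null livers, against 350.7, 370.7 and 325.2 in wild type livers (1.26 ± 0.07, limma adjusted p = 6.8e-05). All Rb null embryos were above all wild type embryos, and another Grb10 probe set showed a difference of 1.19 ± 0.08. Kit, the receptor for stem cell factor on progenitors, read 898.7, 879.7 and 845.5 in Rb null livers, against 543.9, 412 and 546.3 in wild type livers (0.76 ± 0.11, limma adjusted p = 0.0024). Shc1, an adaptor of growth factor receptors (0.31 ± 0.09, limma adjusted p = 0.047), and Sh2b3, an adaptor that restrains cytokine receptors (0.34 ± 0.10, limma adjusted p = 0.048), passed only narrowly. Shc1 was past the threshold in only 1 of the 6 fits with an embryo left out, that without wild type embryo 3, and not in the others (limma adjusted p from 0.054 to 0.13) while Sh2b3 was past it in none of the 6 (from 0.064 to 0.14). Neither was past it under quantile, median or cyclic loess scaling.

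Of 5 tested phosphoinositide kinases and phosphatases 1 rose and none fell (median 0.08). Inpp5d, the SHIP1 phosphatase of blood cells that removes a phosphate from the PI3K product, averaged 305 in Rb null livers and 201 in wild type livers (0.50 ± 0.14, limma adjusted p = 0.036). That call was lost without Rb null embryo 2 or 3 or wild type embryo 2 or 3 (limma adjusted p from 0.064 to 0.11) and under quantile, median or cyclic loess scaling. Another Inpp5d probe set had overlapping groups and averaged 116 in Rb null livers and 140 in wild type livers. Its mean lay below the signal filter and it was not tested. The related phosphatase gene Inppl1 read 0.36 ± 0.15 (limma adjusted p = 0.11, or 0.006 without Rb null embryo 3).

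Kinases of the AKT group and proteins that AKT acts on gave 2 falls and no rise among 15 tested genes (median -0.02). Gsk3a, a kinase that AKT inhibits, read 6595.5, 6102.4 and 6512.8 in Rb null livers, against 7873, 8334.1 and 8129.3 in wild type livers (-0.34 ± 0.05, limma adjusted p = 0.0037). Ywhab, a 14-3-3 protein that holds phosphorylated AKT targets, differed by -0.37 ± 0.10 (limma adjusted p = 0.037), a call that held, of the 6 fits with an embryo left out, only in that without Rb null embryo 3 (otherwise limma adjusted p from 0.077 to 0.1). Of 8 tested genes of the TSC, AMPK and stress inputs 1 rose and 1 fell (median 0.01), and both encode subunits of the energy sensor AMPK. Prkab1, a beta subunit, read 0.26 ± 0.06 (limma adjusted p = 0.022) and Prkag1, a gamma subunit, -0.31 ± 0.08 (limma adjusted p = 0.031). The Prkab1 call was lost without Rb null embryo 2 or wild type embryo 1 or 3 (limma adjusted p from 0.055 to 0.076) and after median scaling (0.18). Of the 6 fits with an embryo left out, the Prkag1 call held in that without Rb null embryo 1 (otherwise limma adjusted p from 0.055 to 0.093). It was also lost with no filter and with the replicate number as a block (limma adjusted p from 0.052 to 0.057).

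Subunits of the mTOR complexes and their lysosomal activators gave 1 fall and no rise among 17 tested genes (median 0.02). That gene was Sec13, which encodes a subunit of the GATOR2 complex that also serves the COPII coat and the nuclear pore. It averaged 1571 in Rb null livers and 1994 in wild type livers (-0.33 ± 0.06, limma adjusted p = 0.006). Flcn, folliculin of the lysosomal amino acid pathway, read 0.44 ± 0.14 (limma adjusted p = 0.053). It was past the threshold with the replicate number as a block (limma adjusted p = 0.02), with probe sets averaged per gene (0.048) and without suffixed probe sets (0.046).

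Among mTOR outputs 2 of 14 tested genes rose and 1 fell (median 0.05). Pdcd4, an inhibitor of translation initiation that is degraded when the pathway is active, read 976.9, 1032.4 and 959.6 in Rb null livers, against 627.2, 660 and 681.5 in wild type livers (0.56 ± 0.07, limma adjusted p = 0.0011). Lpin1, a lipid phosphatase controlled by mTOR, read 191, 198.6 and 197.3 in Rb null livers, against 103.2, 116 and 123.2 in wild type livers (0.58 ± 0.11, limma adjusted p = 0.0086). All wild type values of Lpin1 lay below the signal filter. Larp1, an mTOR target that binds the messengers of ribosomal proteins, averaged 2193 in Rb null livers and 3010 in wild type livers (-0.44 ± 0.10, limma adjusted p = 0.014, or 0.056 without Rb null embryo 1).

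**Figure D4:**
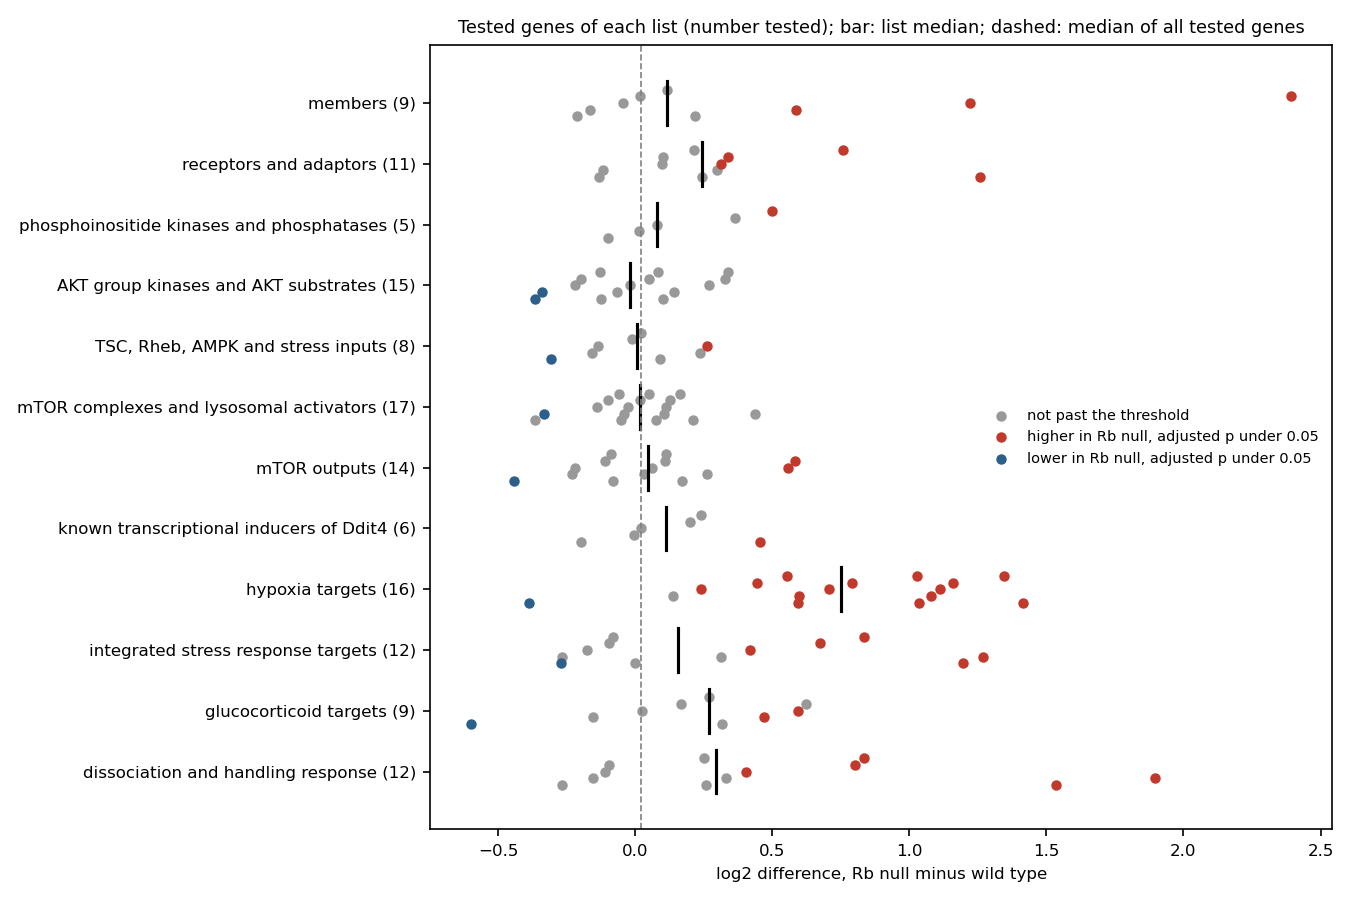
log2 difference (Rb null minus wild type) of every tested gene of each list, with the number tested in brackets, the list median as a black bar and the median of all tested genes (0.02) as a dashed line. Red and blue points passed the limma threshold upward and downward. The 9 genes stand in the top row for comparison, and the hypoxia targets are the list with most points to the right (median 0.75).

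Since Ddit4 is a known target of several stress pathways, lists of those pathways were set beside it. Of the known transcription factors that induce Ddit4, 1 of 6 tested rose (median 0.11). It was Cebpb, which read 828.2, 835.9 and 750.2 in Rb null livers, against 591, 559.5 and 570.6 in wild type livers (0.45 ± 0.07, limma adjusted p = 0.0037). Foxo3 read -0.20 ± 0.08 (limma adjusted p = 0.11, or 0.012 after median scaling). Hif1a averaged 4303 in Rb null livers and 4314 in wild type livers and Atf4 3734 in Rb null livers and 3668 in wild type livers. Both genes were named after their values were seen, and neither was past the threshold. Both are known to be controlled largely after transcription. Epas1 and Nr3c1 of the same list, also named after their values were seen, lay below the signal filter and were not tested. Epas1 averaged 109 in Rb null livers and 69.4 in wild type livers, and Nr3c1 124 in Rb null livers and 71.7 in wild type livers. For each, all Rb null embryos were above all wild type embryos.

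Of 16 tested hypoxia targets 14 rose and 1 fell (median 0.75). Between 10 and 15 rose under the alternatives, the lowest count with the stricter signal filter. Bhlhe40, a transcriptional repressor, read 1.41 ± 0.11, Bnip3, a mitophagy receptor, 1.35 ± 0.10, Pfkp, a phosphofructokinase, 1.16 ± 0.12, and Hk2, a hexokinase, 1.11 ± 0.10, each with a limma adjusted p of at most 6e-04. The wild type means of Bhlhe40 (113) and Pfkp (84.2) lay below the signal filter, as did those of Stc2, Hspa1a and Hspa1b described below. The target that fell was the glucose transporter gene Slc2a1 (-0.39 ± 0.10), named after its value was seen, which erythroid cells also express. No hypoxia target fell without Rb null embryo 2 or 3 or wild type embryo 1 or 3, nor with cyclic loess scaling or no filter.

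Targets of the integrated stress response gave 5 rises and 1 fall among 12 tested genes (median 0.16). With median scaling 4 fell, and with the stricter filter, which leaves fewer genes, 1 rose. No gene of the list fell under quantile or cyclic loess scaling. Stc2, a secreted glycoprotein (1.27 ± 0.11, limma adjusted p = 0.00034), Trib3, a pseudokinase known to bind AKT (1.20 ± 0.10, limma adjusted p = 3e-04), and the factors Atf3 (0.83 ± 0.10, limma adjusted p = 0.001) and Atf5 (0.67 ± 0.07, limma adjusted p = 0.00051) rose. The other genes past the threshold, named after their values were seen, were the factor Ddit3 (0.42 ± 0.08), which was higher, and Mthfd2, a mitochondrial folate enzyme (-0.27 ± 0.05), which was lower. Of 9 tested glucocorticoid targets 2 rose and 1 fell (median 0.27). Errfi1, a feedback inhibitor of receptor kinases (0.59 ± 0.07, limma adjusted p = 0.0015), and Zbtb16, a transcriptional repressor (0.47 ± 0.12, limma adjusted p = 0.03), rose, while the metallothionein gene Mt2 fell (-0.60 ± 0.06, limma adjusted p = 0.00059). The Zbtb16 call was lost without Rb null embryo 1 or 3 or wild type embryo 2 or 3 (limma adjusted p from 0.055 to 0.098) and under quantile, median or cyclic loess scaling. Another Zbtb16 probe set had overlapping groups and averaged 74.0 in Rb null livers and 100 in wild type livers. It lay below the signal filter and was not tested.

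Of 12 tested genes that respond to tissue dissociation and handling 5 rose and none fell (median 0.30). They included the inducible chaperones Hspa1a (1.89 ± 0.16, limma adjusted p = 3e-04) and Hspa1b (1.53 ± 0.11, limma adjusted p = 0.00015), Atf3, and the immediate early gene Ier3 (0.80 ± 0.09, limma adjusted p = 0.00099). The fifth was the immediate early gene Ier2 (0.40 ± 0.07), named after its value was seen. Hspa1a and Hspa1b are near-identical copies whose signals may not be separable. With the stricter filter 1 gene of the list rose. Livers had been disaggregated in saline before RNA extraction. The part of handling, of low oxygen or of any other of these responses in the Ddit4 values was not tested.

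The genes whose profiles over the 6 arrays lay closest to that of Ddit4 were Ctse, a protease (Euclidean distance of centred log2 values 0.49), Igfbp1, a binding protein of insulin-like growth factors (0.53), Hspa1a (0.77), Gas5, a host gene of small nucleolar RNAs (0.83), and Hspa1b (1.08). The median distance over all other tested genes was 2.92. Igfbp1 read 3004.8, 3459.4 and 3171.4 in Rb null livers, against 741.1, 782 and 742.5 in wild type livers. These 5 genes share with Ddit4 a wide gap between the genotypes, for which Ddit4 had been chosen, so their likeness is a description.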

How the data were processed

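RNA levels were measured in 6 whole fetal livers, 3 Rb null and 3 wild type. The deposited intensity values are linear MAS5 signals computed by the authors, per the submitters' processing notes; the version and scaling target are not given in the sources used here. The 2% trimmed means of the arrays, from 500.22 to 500.25, showed that the arrays had been scaled. Probe sets were named by the platform annotation, with symbols matched to RefSeq by gene ID (no symbol differed).

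The 66 array controls were left out. Signals were turned to log2 after adding 50.02, which is 0.1 of the trimmed mean. The filter was 0.3 of it (150.1), and 6793 probe sets averaging more were tested with limma 3.58.1 in R 4.3.3 (two-sided moderated test, intensity trend, Benjamini-Hochberg adjustment, threshold 0.05). A gene was represented by its brightest probe set. In simulated arrays the fit recovered 16.4%, 68.7% and 84.8% of changes of 0.3, 0.6 and 1 (log2), with 3.42% false calls. Only 67, 67 and 66 of the 6793 simulated probe sets were changed by these sizes, with independent normal noise. In the data 21.8% of the probe sets were called, so the recovery there may differ.

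The 9 genes and all lists were chosen with earlier results of these data known. Named were the 9 genes, Rb1, in each list up to 4 called genes with the largest difference (or the 2 with the smallest p where fewer than 2 passed), and the 5 profiles nearest to Ddit4. Alternatives were quantile, cyclic loess and median scaling (linear, over all probe sets but controls), other offsets, filters and variance models, the replicate number as a block, averaging probe sets per gene, leaving out probe sets with suffix letters, and leaving out each embryo.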

Additional observations from a re-analysis of the deposited data

How the results depend on the processing

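Over all genes, 690 rose and 501 fell. The counts were 366 and 1091 after median scaling, 428 rose with the stricter filter of 500.2, and leaving out 1 embryo gave 419 to 553 rises and 256 to 429 falls. Of the pathway genes, 8 rose and 5 fell. There were 4 rises and 10 falls after median scaling, 5 and 3 with no filter, 5 rises with the stricter filter, and 4 to 6 rises and 3 to 4 falls with 1 embryo left out. Without filter or with the stricter one the number of tested genes changes by construction. The array medians, 197.1 to 202.75 in Rb null livers and 175.65 to 186.05 in wild type livers, did not overlap. Scaling to equal medians therefore lowers Rb null values relative to wild type values. For the fits with 1 embryo left out the cause was not tested.

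Whether the replicate numbers pair the embryos is not known. The deviations of same-numbered embryos correlated at -0.06, 0.05 and 0.27 across probe sets, and only the third pair correlated best with its own number. Deviations from a mean of 3 arrays depend on each other, so these values cannot settle it. With the replicate block, 639 genes rose and 488 fell, and 8 and 5 of the pathway genes. These were not all the same genes. Of the named genes, Inpp5d, Sh2b3 and Prkag1 lost their calls under the block and Flcn gained one. The block also took the rises of the AKT list from 0 to 1, and the falls of the mTOR complex list from 1 to 2.

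For the 13 probe sets of the 9 genes, 202 alternative values moved by less than the spread between embryos and 12 by more; Ddit4 and Eif4ebp1 kept their calls in all, while Pik3r2 kept its direction in all and its call in all but no filter and the fits without Rb null embryo 1 or 2. For the genes of the pathway and stress lists that were named by the rule above, 481 alternative values kept the direction and the side of the threshold. Another 57 lost the call, 5 gained it and 0 changed direction. These counts leave out Rb1, the cell type markers, the nearest profiles outside the lists and the genes named after their values were seen. Signal near or below the filter limits Ddit4, Bhlhe40, Pfkp, Stc2, Hspa1a and Hspa1b in wild type livers. It also limits Pik3r2 in wild type embryo 2, Lpin1 and the dimmest Eif4ebp2 and Tsc2 probe sets.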
